A study of Drosophila melanogaster with 27 samples.

Results

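The genes described here are 46 genes of chromosome 4 of Drosophila melanogaster, followed gene by gene in adult females with 1, 2 or 3 copies of that chromosome and with or without an intact Pof gene. They are the chromosome 4 genes that had a probe set annotated to that gene alone and a mean log2 level above 6 on the 3 wild type arrays, apart from 9 genes set apart by name (ey, toy, sv, ci, pan, zfh2, Sox102F, onecut and Zip102B). Of 65 chromosome 4 genes with a probe set of their own, 50 lay above 6, of which 4 were among the genes set apart, and 11 others lay at 6 or below. The 46 genes are part of 7378 genes above the same limit in the whole table. Just inside the limit were CG33941 at 6.11 and Gat at 6.25, and just outside it were RhoGAP102A and Actbeta, both at 5.98.

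RNA of 10 whole females per replicate, collected on their first day of adult life, was hybridised to Affymetrix Drosophila Genome 2 arrays, with 3 biological replicates in each of 9 groups. Every level below is a log2 RMA value (robust multi-array analysis, a background-corrected and normalized summary over the probes of a set) after each array was shifted to give all arrays an equal mean over the genes expressed in wild type. The wild type was the y1 w67c23 strain with 2 copies of chromosome 4. The haplo 4th females had 1 copy and came from wild type crossed to C(4)RM sv spa-pol, a stock that carries its chromosome 4 as a compound in which both copies are joined. The Df(2L)J-H/+ haplo 4th females also had 1 copy, carried a deficiency of chromosome arm 2L and were picked by their Minute phenotype from a cross of Df(2L)J-H/SM5 to the same compound stock. Their controls with 2 copies, Df(2L)J-H/+, and the other deficiency heterozygotes Df(2L)ED4651/+ and Df(3L)4470/+ were daughters of balanced deficiency flies and Oregon R. The Dp(2;2)Cam3/+ triplo 4th females had 3 copies, carried a duplication of a piece of chromosome 2 and were picked as non-Minute daughters of Dp(2;2)Cam3/CyO and the compound stock. The pof-mutant females were homozygous for Pof D119 from a y1 w67c23 stock and had 2 copies, and the pof-mutant triplo 4th females came from that stock and a Pof119/CyO stock with the compound chromosome and had 3. A comparison between groups is therefore also one between crosses, and the part of the cross in a difference cannot be told apart from that of the copy number.

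Chromosome 4 is the small autosome of this fly, in which expressed genes lie among stretches of heterochromatin. It is bound along its length by POF, the product of Pof, a protein with an RNA-binding domain that is specific to this chromosome. A gene whose RNA is set by its number of templates alone is said to follow dose, and one whose RNA changes by less is said to be buffered. Loss of 1 copy of a ribosomal protein gene of this chromosome gives the Minute phenotype, thin bristles and slow development.

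Replicate arrays were not equally alike. Correlations between arrays of a group over all expressed genes were 0.95 to 0.98 in wild type, and 0.62 to 0.90 and 0.67 to 0.92 in the arrays labelled pof-mutant and pof-mutant triplo 4th. The probe set of Pof was not lower in the arrays labelled pof-mutant (9.69 ± 1.17, SD, n = 3) than in wild type (7.68 ± 0.23), and the sources used here do not say if its probes match sequence that the allele has lost. RNA of whole females holds all tissues, and fewer cells of a type and less RNA per cell cannot be told apart. The mean level of 16 ovary germline markers, among them osk, orb and otu, was 9.03 to 9.52 on the wild type arrays, 8.39 to 8.92 on the haplo 4th arrays, 7.08 to 8.58 in the 3 deficiency groups, 7.17 to 9.11 on the arrays of Df(2L)J-H/+ haplo 4th, 7.10 to 9.45 on those of Dp(2;2)Cam3/+ triplo 4th, 9.02 to 10.80 in pof-mutant and 8.35 to 10.40 in pof-mutant triplo 4th. The mean of 10 follicle and eggshell markers ranged from 5.47 to 6.97 on the haplo 4th arrays and from 7.57 to 10.97 on the wild type arrays (median difference −2.49, with 0 called). The means of 7 fat body and 7 muscle markers were lowest on pof-mutant array 2, at 9.17 and 10.04, where the wild type arrays had 11.91 to 13.21 and 12.81 to 13.11. These levels move with several results below, and their part in those results was not tested except where a value with the marker level in the fit is given.

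For each gene the difference between groups came from a limma fit of 1 mean per group over all 27 arrays, and a gene is called where its Benjamini-Hochberg adjusted p over the 7378 genes was under 0.05. The level set by copy number alone is −1 on the log2 scale for 1 copy against 2 (50% of the control), 0.58 for 3 against 2 and 1.58 for 3 against 1. A gene is said to follow dose in a comparison where the 95% interval of its difference held that level and not 0. It is said to fall short of dose where the interval ended before that level, whether it held 0 (held) or lay between 0 and the level or on the other side of 0. Where the interval held both, as for a noisy gene, the comparison does not settle the gene. The median standard error of the members was 0.28 (0.11 to 0.61), so that an interval reached 0.58 to either side at the median.

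As a group the 46 genes shifted with the copy number against wild type, though arrays of other groups overlapped. The median of the 46 genes, set against their wild type means, was −0.46, −0.78 and −0.55 on the haplo 4th arrays and −0.77, −0.72 and −0.56 on the Df(2L)J-H/+ haplo 4th arrays. With 3 copies it was 0.61, 0.41 and 0.25. All 6 arrays with 1 copy lay below, and all 3 Dp(2;2)Cam3/+ triplo 4th arrays above, the 3 wild type arrays at −0.14 to 0.13. The deficiency arrays with 2 copies ran from −0.19 to 0.26, and Df(2L)J-H/+ array 1 (0.255) lay above Dp(2;2)Cam3/+ triplo 4th array 3 (0.251). The pof-mutant arrays with 2 copies stood at −0.52, −0.63 and −0.03, the first within the range of the 1-copy arrays. Those of pof-mutant triplo 4th stood at 0.28, −0.05 and 0.25.

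**Figure D1:**
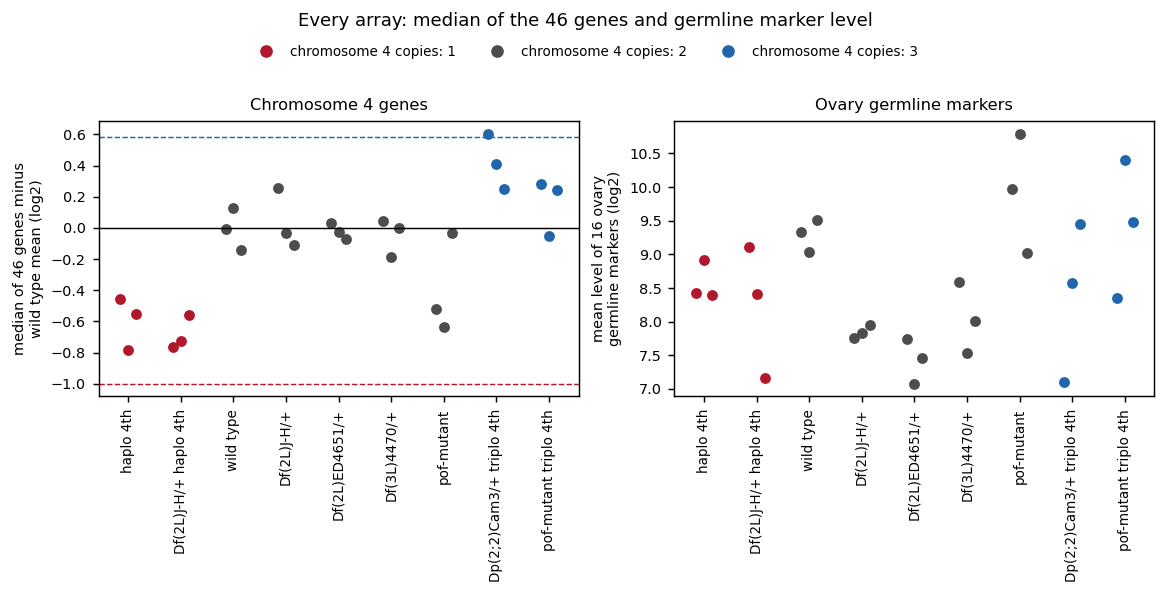
Left, the median over the 46 genes of each array's level minus the wild type mean (log2, vertical axis) for the 27 arrays by group, 1 point per array, with dashed lines at the levels set by copy number; right, the mean level (log2) of 16 ovary germline markers on the same arrays. Arrays with 1 copy lie at −0.78 to −0.46 and do not reach the −1 line, and the pof-mutant arrays spread from −0.63 to −0.03.

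With 1 copy in an otherwise wild type background, 13 of the 46 genes were lower than in wild type and 0 higher (limma, 33 not called), where 1.41% and 2.44% of all expressed genes were called lower and higher. The median difference was −0.62, or 65.0% of the wild type level, against −0.02 over all expressed genes, and 41 of the 46 differences were below 0. The interval held the dose level and not 0 for 22 genes (3.36% of all genes), and ended short of it for 13 (81% of all genes, nearly all of which had an unchanged copy number). For 11 genes it settled neither. When the 6 arrays of the pof-mutant groups were left out of the fit, a choice made after seeing how widely they spread, 24 genes were lower and 1, Gat, was higher, with all 13 calls kept (9.27% and 12.7% of all genes). The follicle and eggshell markers move with this comparison, and their part in the members' differences was not tested. Leaving out wild type array 1 or haplo 4th array 2 left 8 calls, and leaving out wild type array 3 or haplo 4th array 1 or 3 left 6 genes short of dose.

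With 1 copy in the Df(2L)J-H/+ background, 15 of the 46 genes were lower than in Df(2L)J-H/+ with 2 copies and 0 higher, beside 2.53% and 1.92% of all genes. The median was −0.74, or 60.1% of the control, against 0.00 over all genes, and 43 of 46 differences were below 0. Here 28 genes followed dose (4.96% of all genes) and 9 fell short of it (82.1%). Without the 6 pof-mutant arrays 33 were lower and 1 higher (9.91% and 7.75% of all genes), and the 15 calls were kept. Leaving out array 2 of either group left 8 calls, and leaving out Df(2L)J-H/+ array 1 or Df(2L)J-H/+ haplo 4th array 3 left 9. The arrays of both comparisons with 1 copy are all different: 38 of the 46 genes were lower in both (82.6%, where 47% of the other expressed genes had the same sign in both) and 9 genes were called lower in both. The sizes of the differences had a Pearson r of 0.07 and a Spearman rho of 0.08 over the 46 genes (r 0.11 over the other genes). A direct test of the difference between the comparisons called 0 of the 46 genes with limma (0.298% of all genes in each direction), 4 at an unadjusted p under 0.05 (13.1% of all genes), and 9 without the pof-mutant arrays, where 15.5% of all genes were called.

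**Figure D2:**
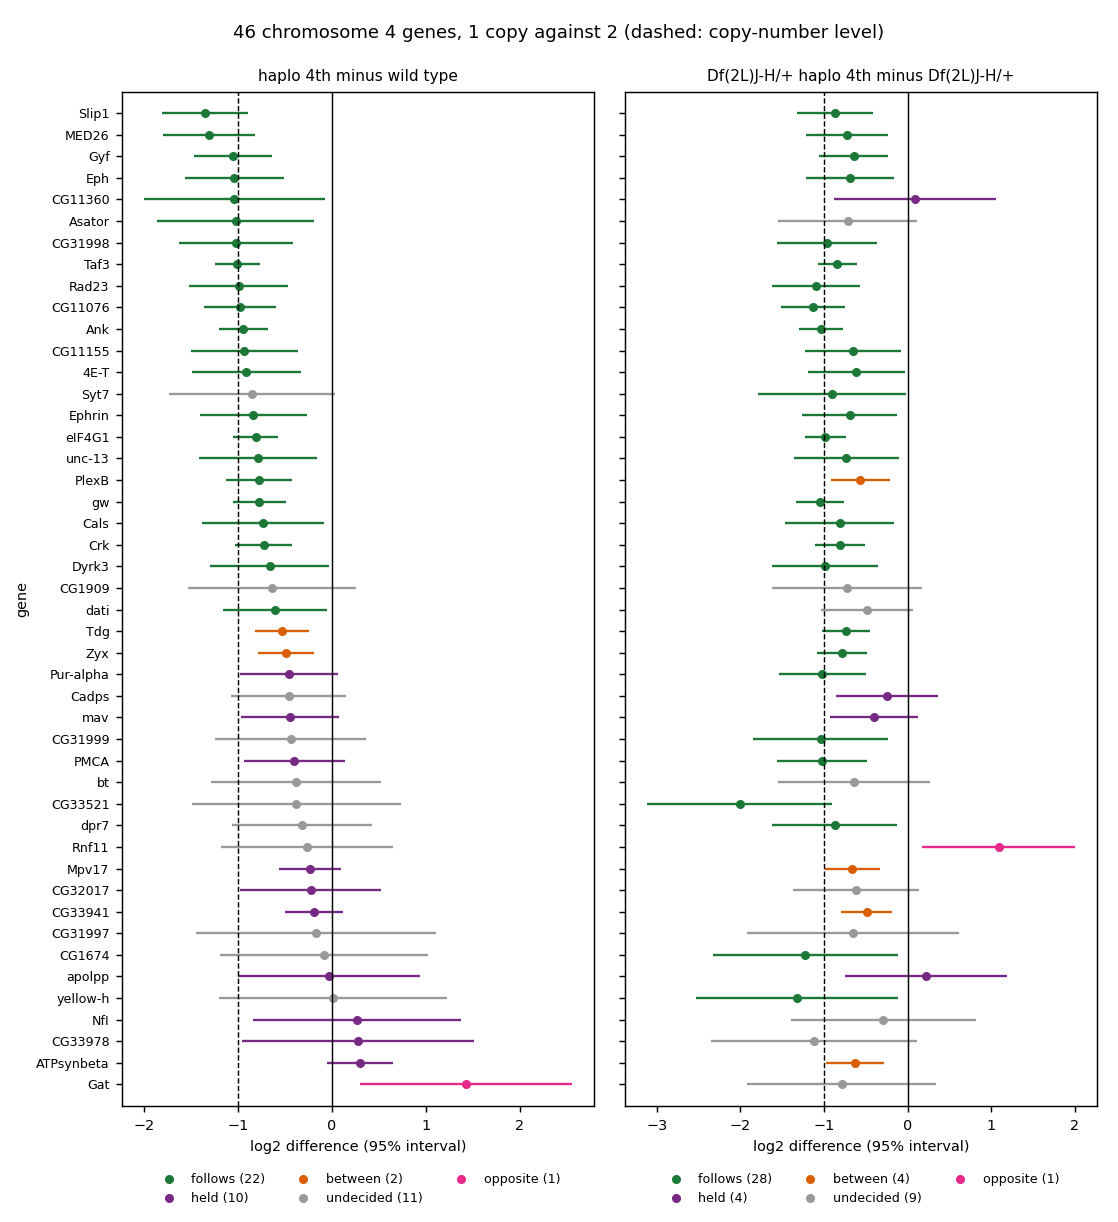
Log2 difference of each of the 46 genes (points, with 95% intervals from limma as lines; horizontal axis) for haplo 4th against wild type and for Df(2L)J-H/+ haplo 4th against Df(2L)J-H/+, coloured by whether the interval holds the 1-copy level (dashed line at −1), 0, both or neither. Most points lie between −1.35 and 0, Gat stands alone above 1 in the first panel and Rnf11 above 1 in the second.

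Of the genes of translation, RNA silencing and protein turnover, eIF4G1 had the lowest p with 1 copy. It encodes the scaffold of the cap-binding initiation complex. Its level was 11.16, 11.22 and 11.26 in wild type and 10.37, 10.36 and 10.47 in haplo 4th, and the groups lay far apart. The difference was −0.81 (95% interval −1.05 to −0.57, 57.0% of wild type, adjusted p = 0.000524). In the Df(2L)J-H/+ background the arrays stood at 11.01, 11.03 and 10.96 with 2 copies and at 9.81, 10.22 and 10.01 with 1, again without overlap, a difference of −0.98 (adjusted p = 2.58e-05). With 3 copies the arrays stood at 11.31, 11.22 and 11.19, overlapping wild type, and the difference of 0.03 (−0.21 to 0.27, 102% of wild type) excluded the 3-copy level of 0.58. eIF4G1 therefore followed dose downwards in both backgrounds and was held upwards against wild type. The deficiency groups at 2 copies had lower means than wild type (11.21), at 11.05 in Df(2L)ED4651/+, 11.00 in Df(2L)J-H/+ and 11.06 in Df(3L)4470/+. A high level in the wild type strain cannot be told apart in the held value. Against 1 copy, 3 copies gave 0.84, between 0 and the dose level.

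Gyf, a GYF-domain protein of the GIGYF family that represses translation of bound mRNAs, was likewise called lower in haplo 4th. It was at 10.75, 10.95 and 10.85 in wild type, at 9.81, 9.78 and 9.83 in haplo 4th and at 10.84, 10.84 and 11.06 with 3 copies. The arrays with 1 copy were all lower than wild type (−1.05, adjusted p = 0.0057), while those with 3 copies overlapped wild type (0.06) and fell short of dose. The 3 deficiency groups, at 2 copies, stood at −0.40 against wild type. A high level of Gyf in the wild type strain therefore cannot be told apart in these values. In Df(2L)J-H/+ haplo 4th Gyf stood at −0.64 (adjusted p = 0.0703), a call without the pof-mutant arrays (adjusted p = 0.00023). Rad23, which carries ubiquitinated proteins to the proteasome, was called lower in both comparisons (−0.99, adjusted p = 0.031, and −1.10, adjusted p = 0.014) and stood at 0.49 with 3 copies. For 4E-T, an eIF4E-binding protein that represses translation, the differences were −0.91 and −0.62 with 1 copy (adjusted p = 0.079 and 0.28) and 0.45 with 3. The deficiency groups at 2 copies stood at −0.48 for 4E-T, so the limit given for Gyf applies to its haplo 4th value. Of these 4 genes of the translation and turnover list, 3 were called lower in haplo 4th and 2 in the deficiency background. All 4 were called higher with 3 copies than with 1, with a median of 1.23. gw, the GW182 protein of microRNA silencing, was lower in both (−0.77, adjusted p = 0.0035, and −1.04, adjusted p = 8.6e-05) and stood at 0.32 with 3 copies.

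Genes of transcription and DNA repair divided. Taf3, a subunit of the TFIID complex, gave the clearest response to a missing copy. It was at 9.74, 9.90 and 9.85 in wild type, at 8.84, 8.80 and 8.84 in haplo 4th and at 10.25, 10.10 and 10.19 with 3 copies, so the 3 doses did not overlap. The loss of a copy brought it to 49.9% of wild type (log2 interval −1.24 to −0.77, adjusted p = 5.38e-05). The added copy gave 0.35 (0.11 to 0.59, 127%), for which the adjusted p was 0.105, and 3 copies against 1 gave 1.35 (1.11 to 1.59, 255%, adjusted p = 2.35e-07). In the deficiency background Taf3 went from 9.78, 9.61 and 9.66 to 8.87, 8.78 and 8.88, which was −0.84 (adjusted p = 0.000134).

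MED26, a subunit of the Mediator complex, was also lower than wild type with 1 copy and not higher than wild type with 3. It was at 10.65, 10.44 and 10.65 in wild type, at 9.31, 9.25 and 9.27 in haplo 4th and at 10.46, 10.49 and 10.82 with 3 copies. The haplo 4th arrays were apart from wild type (−1.30, adjusted p = 0.0038), and the triplo 4th arrays overlapped wild type (0.01). In the deficiency background the difference was −0.72 and was not called. At 2 copies the 3 deficiency groups were lower than wild type as well (−0.60). The differences of MED26 against wild type therefore cannot be told apart from a high level in the wild type strain. Tdg, a thymine DNA glycosylase, was called lower in both, by less than the dose level in haplo 4th (−0.53, adjusted p = 0.033, and −0.74, adjusted p = 0.0029). Pur-alpha, a protein that binds single-stranded DNA and RNA, was −0.46 in haplo 4th and −1.02 in the deficiency background, where it was called (adjusted p = 0.0195). The zinc finger protein dati stood at −0.60 and −0.48, and NfI, a factor of the nuclear factor I family, at 0.27 and −0.29. The values of dati and NfI were not called. Of these 6 genes of the transcription and chromatin list, 3 were called lower in each comparison with 1 copy and 5 were called higher with 3 copies than with 1.

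Receptors, ligands and their adaptor followed dose in most cases. The receptor tyrosine kinase Eph was lower in haplo 4th (−1.04, adjusted p = 0.024), its ligand Ephrin stood at −0.84 and −0.69 without a call, and PlexB, a semaphorin receptor, was lower in haplo 4th (−0.78, adjusted p = 0.016) and at −0.57 in the deficiency background. PlexB was also lower than wild type in the deficiency groups at 2 copies (−0.52). A high level in the wild type strain cannot be told apart in its haplo 4th value. Crk is an SH2 and SH3 adaptor of receptor signalling. It was at 10.55, 10.44 and 10.39 in wild type, at 9.89, 9.58 and 9.74 in haplo 4th and at 10.93, 11.01 and 10.87 with 3 copies, with no overlap between any of the doses. Its differences were −0.72 with 1 copy (60.6% of wild type, adjusted p = 0.00985) and 0.48 with 3 (0.18 to 0.78, 139%, adjusted p = 0.0769), and 3 copies against 1 gave 1.20 (0.90 to 1.503, 230%, adjusted p = 4.76e-05). In the deficiency background Crk was lower by a like amount (−0.81, adjusted p = 0.00259).

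mav, a ligand of the TGF-beta family, was the member of this group that stayed above dose in both backgrounds. It was at 8.59, 8.81 and 8.64 in wild type and at 8.34, 8.13 and 8.26 in haplo 4th, and at 8.87, 8.73 and 8.69 against 8.24, 8.37 and 8.47 in the deficiency background. The groups did not overlap in either case, but the differences of −0.44 (−0.96 to 0.08) and −0.40 (−0.92 to 0.12, 75.6% of the control) were not called and their intervals ended before −1. Cals, a calsyntenin, stood at −0.73 and −0.81 without a call. Of these 6 genes of the receptor, ligand and adhesion list, 3 were called lower in haplo 4th and 1 in the deficiency background.

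Of the synapse and membrane genes, Ank had the lowest p with 1 copy. It encodes an ankyrin, which ties membrane proteins to the spectrin skeleton. Its arrays were at 10.24, 10.42 and 10.17 in wild type, 9.41, 9.13 and 9.47 in haplo 4th, and 10.70, 10.50 and 10.54 with 3 copies, the doses again being apart. The differences were −0.94 with 1 copy (−1.20 to −0.68, 52.1% of wild type, adjusted p = 0.000338), 0.30 with 3 (0.04 to 0.57) and 1.24 for 3 copies against 1 (0.98 to 1.505, 237%, adjusted p = 4.69e-06). The deficiency background gave 9.05, 8.96 and 9.07 against 10.29, 10.02 and 9.90, a difference of −1.04 (adjusted p = 3.1e-05).

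Slip1, named for its interaction with a calcium-activated potassium channel, had the largest fall of the 46 genes in haplo 4th. It was at 9.11, 9.25 and 9.04 in wild type and at 7.82, 7.66 and 7.87 in haplo 4th, with the groups far apart (−1.35, 39.3% of wild type, adjusted p = 0.0014), and in the deficiency background it was lower as well (−0.86, adjusted p = 0.024). The deficiency groups at 2 copies also stood below wild type for Slip1 (−0.42). The part of a high wild type level in its haplo 4th value cannot be told apart. PMCA, the plasma membrane calcium pump, was called in the deficiency background (−1.03, adjusted p = 0.024) and stood at −0.40 in haplo 4th. Another of its probe sets gave −1.86 in haplo 4th and a further one −0.17, so this gene depends on the probes read. The genes of vesicle release, unc-13 (−0.78 and −0.73), Syt7 (−0.85 and −0.91) and Cadps (−0.46 and −0.25), were not called. Cadps, which primes dense-core vesicles, was at 7.22, 6.79 and 6.68 with 2 copies and at 6.49, 6.60 and 6.85 with 1 in the deficiency background. The arrays overlapped, and the difference of −0.25 (−0.86 to 0.36, 84.0% of the control) excluded the 1-copy level. Of the 7 genes of the synapse and transport list (these and Gat), 2 were called lower in haplo 4th and 3 in the deficiency background.

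Gat, the GABA transporter of glia, was measured at a higher level with 1 copy than with 2 in haplo 4th. It was at 6.34, 6.41 and 5.99 in wild type and at 7.32, 7.73 and 7.97 with 1 copy, so that all haplo 4th arrays were higher. The difference was 1.43 (0.30 to 2.56, 269% of wild type) and was not called. Against its own control the deficiency background gave −0.79, from 8.59, 8.97 and 8.57 with 2 copies to 7.63, 7.94 and 8.20 with 1. The levels of Gat in Df(2L)J-H/+ were thus higher than in wild type at an equal copy number. The difference between the comparisons was −2.22 (adjusted p = 0.203).

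Of the mitochondrial and lipid genes, ATPsynbeta and apolpp were held at the 2-copy level in haplo 4th and yellow-h was not settled. ATPsynbeta encodes the catalytic subunit of the mitochondrial ATP synthase. It was at 13.22, 13.27 and 13.01 in wild type and at 13.31, 13.53 and 13.57 in haplo 4th, where the arrays lay slightly higher with 1 copy than with 2, at a difference of 0.30 (−0.05 to 0.65, 123% of wild type). Its second probe set had the other sign there (−0.25). ATPsynbeta was also higher than wild type in the deficiency groups at 2 copies (1.03). A low level in the wild type strain therefore cannot be told apart in the haplo 4th value. In the deficiency background it went from 14.17, 14.33 and 14.43 to 13.60, 13.78 and 13.66, with no overlap, a difference of −0.63 (−0.98 to −0.28, 64.5%, adjusted p = 0.0323) that also ended before the dose level. The difference between the comparisons was −0.93 (adjusted p = 0.074).

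Mpv17, whose mammalian counterpart is a protein of the inner mitochondrial membrane, was at 8.15, 8.11 and 8.03 in wild type and at 7.87, 7.86 and 7.87 in haplo 4th. All haplo 4th arrays were lower, but the difference of −0.23 (−0.56 to 0.10, 85.3%) was not called and excluded the 1-copy level. Mpv17 too was higher than wild type in the deficiency groups at 2 copies (0.42). In the deficiency background it was lower by −0.66 (−0.99 to −0.33, 63.2%, adjusted p = 0.018), just short of −1. apolpp, the precursor of the lipoprotein lipophorin and also 1 of the 7 fat body markers, stood at −0.03 and 0.22, and yellow-h, of the yellow protein family, at 0.01 and −1.33, neither called. The 3 genes of the mitochondria and lipid list, ATPsynbeta, apolpp and yellow-h, had a median of 0.01 in haplo 4th, with 0 called, and −0.63 in the deficiency background, with 1 called.

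**Figure D3:**
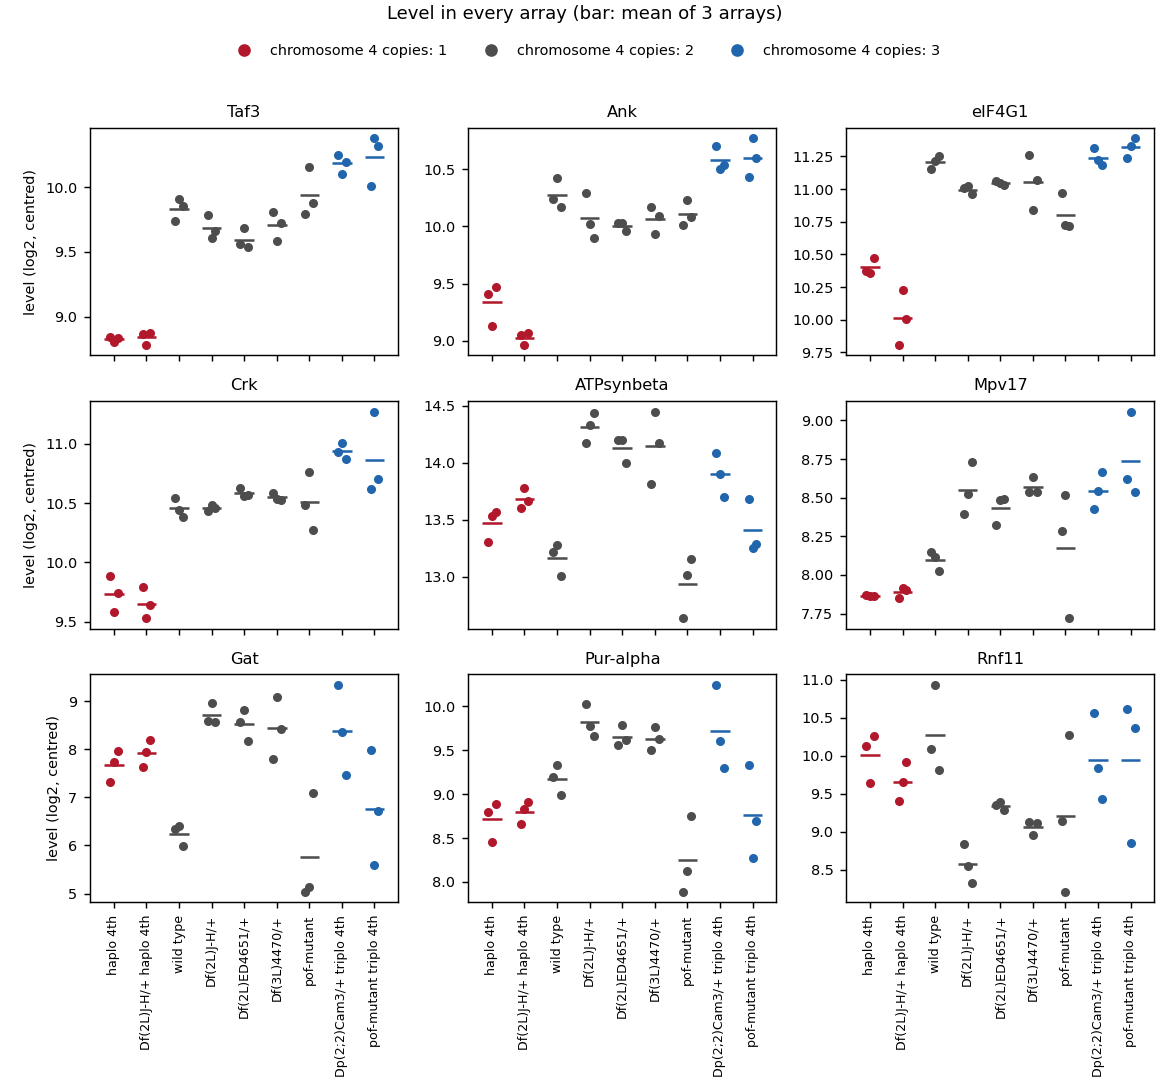
Centred log2 level (vertical axis) of Taf3, Ank, eIF4G1, Crk, ATPsynbeta, Mpv17, Gat, Pur-alpha and Rnf11 on each of the 27 arrays by group, 1 point per array, with a bar at the mean of the 3 arrays of a group. Taf3, Ank and Crk step down with 1 copy and up with 3, eIF4G1 steps down only, and Gat is lowest on 2 of the 3 pof-mutant arrays.

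Asator, Dyrk3 and bt, the genes of the kinase list, were not called with 1 copy. Asator, a tau tubulin kinase, stood at −1.02 and −0.72, and Dyrk3, a dual-specificity kinase, at −0.66 and −0.98. bt, the titin-like muscle protein projectin, stood at −0.38 and −0.64. Zyx (zyxin), a protein of adhesion sites, was called in the deficiency background (−0.79, adjusted p = 0.0027) and stood at −0.49 in haplo 4th (adjusted p = 0.06). None of these genes of the kinase and cytoskeleton lists was called in haplo 4th.

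The other 16 genes, most of them known by a CG number only, held 2 calls in haplo 4th and 4 in the deficiency background. CG11076 followed dose in both (−0.97, adjusted p = 0.0057, and −1.13, adjusted p = 0.00095), as gw did. CG33521 had the largest difference of the deficiency background, from 10.73, 10.60 and 10.31 with 2 copies to 8.36, 8.54 and 8.70 with 1 (−2.01, adjusted p = 0.032). Its 2 groups lay far apart there, whereas haplo 4th (9.12, 8.47 and 9.05) overlapped wild type (9.26, 9.48 and 9.03).

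CG33941 was held in haplo 4th: it was at 5.94, 6.23 and 6.16 in wild type and at 6.04, 5.81 and 5.91 in haplo 4th, overlapping, with a difference of −0.19 (−0.49 to 0.12, 87.8%). With the deficiency it was at 5.97, 6.24 and 5.98 with 2 copies and at 5.38, 5.53 and 5.81 with 1, without overlap, between 0 and the dose level (−0.49, −0.80 to −0.19, adjusted p = 0.061). That difference was called without the pof-mutant arrays (adjusted p = 0.0103). CG11360 was at 5.87, 5.96 and 6.12 with 2 copies and at 6.18, 6.09 and 5.95 with 1 in the deficiency background, overlapping (0.09, −0.88 to 1.06, 106%), and at −1.04 (−2.001 to −0.07) in haplo 4th. These levels of CG33941 and CG11360 lie near 6, and the paper detected effects of aneuploidy only above that limit. A held value of either gene therefore cannot be told apart from a floor of the measurement. Rnf11, a RING finger protein, stood on the other side of 0 in the deficiency background, going from 8.84, 8.55 and 8.32 with 2 copies to 9.41, 9.65 and 9.92 with 1, without overlap, yet at an adjusted p of 0.201 (1.09, 0.17 to 2.01, 213%). In haplo 4th it stood at −0.27, and the difference between the comparisons was 1.35 (adjusted p = 0.357). The rest of this group ran from −1.02 (CG31998) to 0.28 (CG33978) in haplo 4th and from −1.23 (CG1674) to −0.62 (CG32017) in the deficiency background. Between these ends were CG31999, CG31997, CG1909, CG11155 and dpr7, an immunoglobulin-domain protein of the dpr family.

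With 3 copies against 2 the shift was smaller and fewer genes stood out. Dp(2;2)Cam3/+ triplo 4th was higher than wild type for 2 of the 46 genes and lower for 0, where 2.02% and 1.29% of all genes were called higher and lower. The median was 0.47 (138% of wild type), below the dose level of 0.58, against −0.03 over all genes, and 15 genes passed an unadjusted p under 0.05 (15.7% of all genes). The genes called were ATPsynbeta and Gat. ATPsynbeta was at 14.09, 13.90 and 13.70 with 3 copies, above all wild type arrays (0.73, 0.38 to 1.08, 166%, adjusted p = 0.0163). Gat was at 9.34, 8.36 and 7.46, above all wild type arrays and wide in its spread (2.14, 1.01 to 3.27, 441%, adjusted p = 0.031), an interval that lay above the dose level. With only the compared arrays in the fit neither was called (adjusted p = 0.0655 for ATPsynbeta and 0.0785 for Gat). Leaving out Dp(2;2)Cam3/+ triplo 4th array 1 or 2 or wild type array 3 left 0 calls, and leaving out wild type array 1 or 2 left 1.

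These 2 genes were also higher in the deficiency heterozygotes, in which chromosome 4 was at 2 copies. ATPsynbeta was at 14.20, 14.20 and 14.00 in Df(2L)ED4651/+ and at 13.81, 14.45 and 14.17 in Df(3L)4470/+. Gat was at 8.56, 8.81 and 8.18 and at 7.79, 9.09 and 8.41 in the same groups. All of these arrays lay above the wild type arrays, and the calls for 3 copies cannot be told apart from a low level of both genes in the wild type strain.

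By their intervals 13 genes followed dose upwards, where 6.79% of all genes had such an interval: dpr7, gw, Zyx, CG33941, CG1909, dati, ATPsynbeta, Crk, PMCA, Tdg, Mpv17, Pur-alpha and Taf3. Short of dose were 4, where 58.9% of all genes were: Gyf, MED26 and eIF4G1, held at their wild type level, and Ank between the levels. For Gyf, MED26 and eIF4G1 the limit given above on the level in the wild type strain applies. Some genes that followed dose also stood above wild type in the deficiency groups at 2 copies. Among these were ATPsynbeta (1.03), dpr7 (0.78), Pur-alpha (0.53), Mpv17 (0.42), PMCA (0.41), Tdg (0.40) and gw (0.17), while Taf3 stood below (−0.17). For the genes above wild type there, dose cannot be told apart from a low level in the wild type strain. For 28 genes the interval held both levels, so that an added copy was settled for fewer genes than a missing one. Without the 6 pof-mutant arrays 20 genes were called higher and 0 lower (9.37% and 7.81% of all genes), 28 followed dose and 11 fell short.

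Set directly against each other, 3 copies and 1 differed for most of the members: 25 of 46 were higher with 3 copies and 0 lower, where 1.15% and 0.962% of all genes were called. The median was 1.07 (209% of the 1-copy level) against the dose level of 1.58 and a median of 0.01 over all genes. The interval of 24 genes held the dose level and not 0 (1.29% of all genes), and 17 fell short (95% of all genes). Of the latter, 13 lay between 0 and the dose level: Gyf, gw, PlexB, Zyx, CG33941, ATPsynbeta, mav, Crk, Ank, Tdg, Mpv17, Pur-alpha and eIF4G1. Gyf, gw, Crk, Ank and eIF4G1 thus fell short here, though they followed dose in both comparisons of 1 copy with 2. The smallest p-values were those of Taf3, Ank and Crk, given above. The largest differences called were those of Asator (1.73, adjusted p = 0.021), Slip1 and Syt7 (1.64, adjusted p = 0.046). Slip1 (1.67, adjusted p = 0.00012), CG31998 (1.59, adjusted p = 0.0032), Eph (283% of the 1-copy level, adjusted p = 0.0017) and Rad23 (1.48, adjusted p = 0.0018) were among the other called genes, and their intervals held the dose level.

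Held between 1 and 3 copies were bt, Rnf11, apolpp and yellow-h. bt was at 12.44, 12.04 and 12.24 with 1 copy and at 12.87, 12.69 and 12.37 with 3, overlapping (0.40, −0.51 to 1.31, 132%). Rnf11 was at 10.13, 9.64 and 10.27 with 1 and at 10.56, 9.84 and 9.44 with 3, the latter spanning the former (−0.06, −0.98 to 0.85, 95.7%). apolpp was at 12.32, 12.06 and 12.16 with 1 and at 12.00, 13.23 and 13.14 with 3, with 1 array of the second group below the first (0.61, −0.36 to 1.58, 152%). yellow-h stood at 0.13. The arrays of bt, apolpp and Rnf11 spread more than those of Taf3 or Ank, and their intervals are wide.

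**Figure D4:**
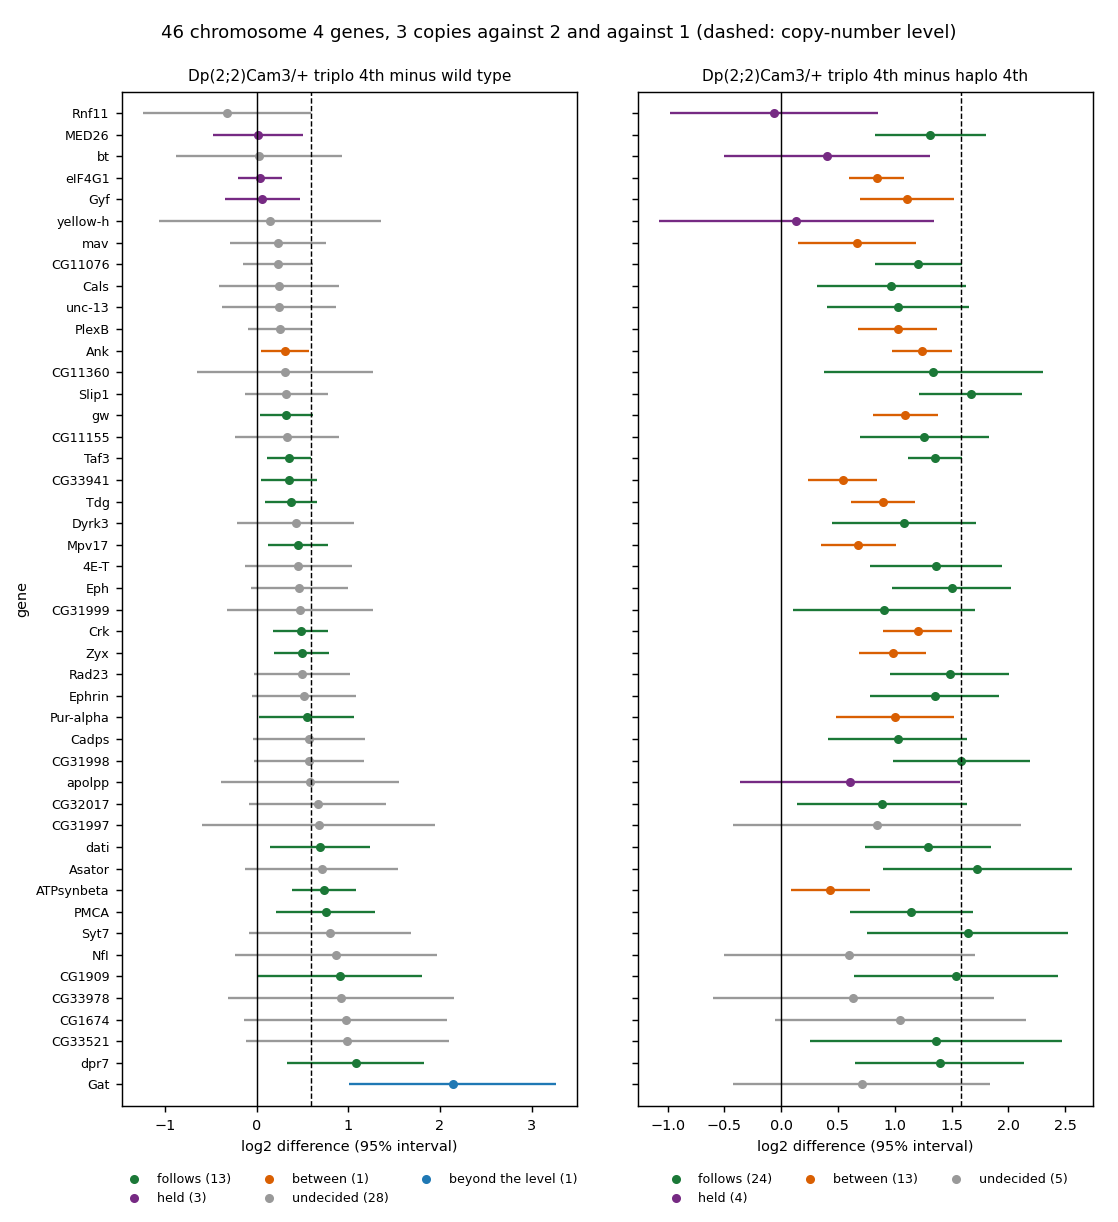
Log2 difference of each of the 46 genes (points, with 95% intervals from limma as lines; horizontal axis) for Dp(2;2)Cam3/+ triplo 4th against wild type and against haplo 4th, coloured by whether the interval holds the dose level (dashed lines at 0.58 and 1.58), 0, both or neither. Points run from −0.33 to 2.14 against wild type and from −0.06 to 1.73 against haplo 4th, where all but Rnf11 lie above 0.

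Across the comparisons with 1 copy, 18 genes followed dose in both: Slip1, Rad23, Gyf, gw, CG11076, MED26, Cals, CG31998, Dyrk3, Ephrin, CG11155, Crk, unc-13, Ank, eIF4G1, 4E-T, Taf3 and Eph. They include all 4 members of the translation and turnover list and Eph with its ligand. These classes depend on the arrays that estimate the spread. Without the 6 pof-mutant arrays, 20 and 26 genes followed dose and 24 and 19 fell short in these comparisons. In the deficiency background Gyf (−0.64, standard error 0.092), Eph (−0.69, 0.104) and Ephrin (−0.69, 0.129) then ended short of −1. So did 4E-T (−0.62, 0.148), MED26 (−0.72, 0.130) and Crk (−0.81, 0.087) there, and gw (−0.77, 0.085) and Crk (−0.72, 0.087) in haplo 4th. Gyf and 4E-T of the translation and turnover list, and Eph with its ligand, thus left the class in that fit. Short of dose in both were 5: CG33941, ATPsynbeta, mav, Mpv17 and apolpp. CG33941 lay near the limit of 6. ATPsynbeta and Mpv17 were higher than wild type in the deficiency groups at 2 copies (1.03 and 0.42). Their haplo 4th values therefore cannot be told apart from a low level in the wild type strain. The second probe set of ATPsynbeta stood at −0.25 in haplo 4th and −0.92 in the deficiency background. A further 6 followed dose in 1 comparison and fell short in the other (PlexB, Zyx, PMCA, Tdg, Pur-alpha and CG11360). The remaining 17 were not settled in at least 1 of them. The comparisons of 1 and of 3 copies with wild type share the wild type arrays, and so do those of pof-mutant and of the deficiency groups, so the values given side by side for a gene are not independent of each other.

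In the comparison of pof-mutant with wild type, both with 2 copies, the members were lower at the median and few were called. 1 gene of 46, Pur-alpha, was lower and 0 were higher, where 2.43% and 1.36% of all genes were called. The median was −0.38 (76.6% of wild type) against 0.06 over all genes, and the members ran from −1.78 (CG33521) to 1.11 (CG11360), with 22 at an unadjusted p under 0.05 (47.8%, beside 35.8% of all genes). Per array the median of the 46 genes was −0.52, −0.63 and −0.03 against wild type means, so array 3 stood at the wild type level and the others below it. Markers of other tissues moved as well: the fat body and muscle markers had medians of −1.58 and −1.07 in this comparison, with 0 called. pof-mutant array 2, lowest in both, also had the highest germline level of the 27 arrays (10.80), and bt (10.00) and apolpp (9.77) were lower on it than on the other arrays of the pof-mutant groups. The part of these tissues in the members' differences was not tested.

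Pur-alpha was at 9.19, 9.33 and 8.99 in wild type and at 7.89, 8.12 and 8.75 in pof-mutant, lower on every array (−0.92, −1.44 to −0.40, 52.9%, adjusted p = 0.0422). The call was lost when any array of these groups but pof-mutant array 3 was left out, with the replicate number as a block (adjusted p = 0.0538) and with only the compared arrays in the fit (adjusted p = 0.478). Leaving out pof-mutant array 3, the nearest to wild type, gave 22 lower and 8 higher, beside 23.9% lower and 35% higher of all genes, and leaving out array 2 gave 0 calls and a median of −0.27. The dose followers did not move together here. Taf3 (0.11), Crk (0.05), Gyf (0.21), gw (0.21) and CG11076 (0.08) stood at or slightly above wild type. 4E-T (0.77), Rad23 (0.65), Eph (0.60), Ephrin (0.58), CG31998 (0.51) and MED26 (0.43) were higher at the mean, without a call. Cals (−0.93), CG11155 (−0.79), unc-13 (−0.74), Dyrk3 (−0.38), Slip1 (−0.28) and Ank (−0.17) were lower at the mean, also without a call. eIF4G1 stood below as well, at 10.97, 10.72 and 10.72 against 11.16 to 11.26 in wild type, with no overlap (−0.41, −0.65 to −0.16, 75.4%, adjusted p = 0.0535).

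With 3 copies, 2 genes were lower in pof-mutant triplo 4th than in Dp(2;2)Cam3/+ triplo 4th and 0 higher, beside 2.33% and 1.06% of all genes. The median was −0.30 (81.0%) against 0.06 over all genes. The genes were again Pur-alpha, which went from 10.25, 9.61 and 9.30 to 9.33, 8.27 and 8.69 with an overlap of 1 array (−0.95, −1.47 to −0.43, 51.7%, adjusted p = 0.0381), and dpr7, which went from 8.77, 8.15 and 7.61 to 7.62, 5.98 and 6.87 (−1.35, −2.10 to −0.61, 39.1%, adjusted p = 0.04), also with 1 array in the other group's range. Leaving out pof-mutant triplo 4th array 1 gave 14 lower and 1 higher (9.72% and 8.38% of all genes), and leaving out array 2 or 3 of that group or Dp(2;2)Cam3/+ triplo 4th array 1 or 2 gave 0.

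The comparisons at 2 and at 3 copies share no array. Over the 46 genes their differences had a Pearson r of 0.77 and a Spearman rho of 0.79, with 38 of the same sign (82.6%). The other expressed genes had an r of 0.72 and 80.9% of the same sign, so the likeness is not particular to chromosome 4. Of the 28 genes below 0 in both, 25 had a correlation below −0.5 with the ovary germline markers within groups, and of the 10 above 0 in both, 8 had one above 0.5. Of the other expressed genes with such signs, 82% and 74.4% did. The level of these markers was higher at the median in the pof-mutant groups, by 0.76 with 2 copies and 1.06 with 3, with 0 of 16 called.

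**Figure D5:**
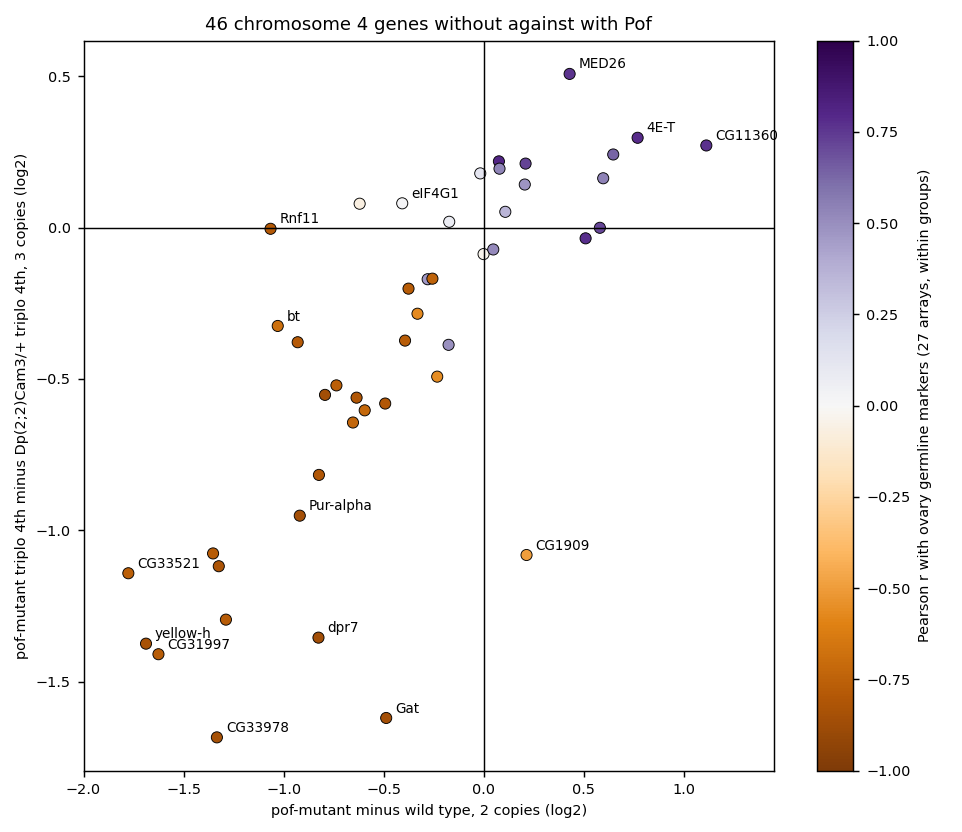
Log2 difference of each of the 46 genes for pof-mutant against wild type (2 copies, horizontal axis) and for pof-mutant triplo 4th against Dp(2;2)Cam3/+ triplo 4th (3 copies, vertical axis), 1 point per gene, coloured by the gene's correlation with 16 ovary germline markers over arrays. Genes negative on both axes, such as Pur-alpha at −0.92 and −0.95, mostly have a negative correlation.

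Without Pof, too, the members stood higher with 3 copies than with 2 at the median. pof-mutant triplo 4th was set against pof-mutant, with a median of 0.51 (142%) against −0.04 over all genes. No gene was called with limma (0% of all genes in either direction), and 16 members passed an unadjusted p under 0.05 (5.72% of all genes). In 41 of 46 genes the difference was above 0 both here and in the comparison of 3 with 2 copies with Pof (89.1%, beside 67.9% of other genes), and these comparisons share no array (Pearson r 0.35, Spearman rho 0.39). By their intervals 15 genes followed dose (3.43% of all genes): CG1674, PlexB, Zyx, Cals, Cadps, dati, ATPsynbeta, Crk, PMCA, Ank, CG33521, Tdg, Mpv17, eIF4G1 and apolpp. Short of it were 11 (65.2% of all genes): Gyf, gw, CG33941, MED26, CG1909, mav, Ephrin, CG11360, 4E-T, Eph and Taf3. Only 1 gene fell short when pof-mutant array 2 or pof-mutant triplo 4th array 1 was left out, and 3 without pof-mutant triplo 4th array 3. Tissue markers moved here too, with medians of 1.68 (follicle and eggshell), 1.28 (fat body), 0.81 (muscle) and −0.50 (germline), with 0 called. apolpp, itself a fat body marker, stood at 1.28, and CG33521 was highest at 1.62. With the germline level in the fit the members' median was 0.40. The part of the other tissues was not tested.

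eIF4G1 was at 10.97, 10.72 and 10.72 in pof-mutant and at 11.24, 11.33 and 11.39 with an added copy, without overlap (0.52), whereas with Pof the added copy gave 0.03. That difference of differences was 0.49 (0.14 to 0.83) at an adjusted p of 0.316. Over the 46 genes such a test called 0 with limma, 2 at an unadjusted p under 0.05 (7.87% of all genes), with a median of 0.01 (0.203% and 0.136% of all genes were called higher and lower). Gyf and MED26 fell short of dose with 3 copies both with and without Pof. Without pof-mutant array 3 and pof-mutant triplo 4th array 2, an omission chosen after seeing the data, 28 genes were higher and 7 lower in the comparison without Pof, beside 28.6% and 39.9% of all genes.

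At an unchanged copy number the members did not shift as a group. The mean of the 3 deficiency groups differed from wild type by a median of −0.04 over the 46 genes (−0.01 over all genes), with 3 genes lower (13.9% of all genes) and 5 higher (17.7%). PlexB (−0.52, adjusted p = 0.008), MED26 (−0.60, adjusted p = 0.024) and Rnf11 (−1.28, adjusted p = 0.0117) were lower. Gat (2.31, 494%, adjusted p = 0.000879), ATPsynbeta (1.03, adjusted p = 3.26e-05), dpr7 (0.78, adjusted p = 0.0469), Mpv17 (0.42, adjusted p = 0.0193) and Tdg (0.40, adjusted p = 0.011) were higher. Without wild type array 1 or 3 there were 5 and 4 calls, and without the 6 pof-mutant arrays 11 lower and 14 higher (29.8% and 30.2% of all genes). In the same comparison 12 of the 16 ovary germline markers were called lower. These groups and wild type differ in their parents as well as in the deficiencies.

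Within groups most members moved with or against the ovary germline markers, as most other genes did, a pattern noticed after seeing the data. Over the 27 arrays, each taken as its deviation from its group mean, 25 of the 46 genes had a Pearson r below −0.5 with the mean of the 16 markers and 11 an r above 0.5, where 36.2% and 37.8% of the other expressed genes did. Without the 6 pof-mutant arrays, 24 and 7 of these stayed beyond these limits. The most negative were CG11155, dpr7 and Pur-alpha (each −0.86), Gat and CG33978 (each −0.85) and yellow-h (−0.84), and the most positive were CG11076 (0.81), 4E-T (0.79), CG31998 (0.78), CG11360 (0.77) and MED26 (0.76). eIF4G1 (0.02), Ank (0.07), CG33941 (−0.04) and PlexB (0.12) moved with them least. These points share libraries and the mix of tissues in a whole fly. With the marker level as a covariate in the fit, 28 genes were called in haplo 4th against wild type (7.58% of all genes), 29 in the deficiency background (11.1%) and 10 with 3 copies against 2 (7.44%).

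Place on the chromosome did not order the differences. Over the 45 pairs of neighbours among the 46 genes, the correlation of their differences lay between −0.19 and 0.19 in the comparisons computed. The rank correlation of the difference with the level of expression, taken from the Df(2L)ED4651/+ and Df(3L)4470/+ arrays, lay between −0.30 and 0.13. For 19 genes the probe set was of a kind that can also bind related transcripts, and 11 had more than 1 probe set. The second probe set of ATPsynbeta stood at −0.92 in the deficiency background, lower than the one used (−0.63), and the second of Rnf11 had the same signs as the first (−0.18 and 0.91).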

How the data were processed

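The authors deposited log2 expression values, 1 per probe set and array, made by RMA (robust multi-array averaging of background-corrected, normalized probe intensities). If the arrays were all normalized in 1 run is not given in the sources used here. The table held 18952 probe sets on 27 arrays, 0 missing values and array means from 6.32 to 6.39. A single gene symbol was annotated to 13646 probe sets, several to 402 and none to 4904. The gene table had 13543 of the 13646 and lacked 103. Where a gene had several probe sets, the one highest on average was used (11893 genes). Genes with a wild type mean above 6 were kept (7378), and each array was shifted to the wild type mean over them, as in the study.

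Differences were tested with limma 3.58.1 in R 4.3.3, with a mean for each of the 9 groups, moderated variances and Benjamini-Hochberg adjustment over the 7378 genes. The fit was also run on simulated data, but no outcome of that run is given here and no result rests on it. The number of arrays limits the precision. The p-values rest on the spread between biological replicates pooled over the 9 groups and moderated over genes, not on that of the compared groups alone. Replicates were least alike in the pof-mutant groups. Array values were given by rule for the 3 called genes with the smallest p in each comparison of copy number or Pof, for the 3 held genes with the narrowest intervals, and for the lowest and highest genes of a comparison. Other genes given with their arrays were chosen after their values were seen. The members and gene lists were chosen with earlier results of these data known. Alternatives were the centring, the expression limit, leaving out probe sets that can bind related transcripts, the arrays in the fit, the replicate number as a block, a germline marker covariate and leaving out each array.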

Additional observations from a re-analysis of the deposited data

Results flagged for a closer look

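Among the 11 chromosome 4 genes at or below the expression limit in wild type, which entered no comparison, 2 lay above it on all arrays of another group. myo, a ligand of the TGF-beta family, had a mean log2 level of 6.67 in Dp(2;2)Cam3/+ triplo 4th (6.18 to 7.33) and of 5.72 in wild type (5.28 to 6.11). RhoGAP102A had a mean of 6.73 in the group Df(2L)ED4651/+ and a mean of 6.57 in Df(3L)4470/+, where chromosome 4 was at 2 copies, and of 5.98 in wild type (5.77 to 6.35). These differences were not tested.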

How the results depend on the processing

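Counts of called genes changed with the arrays that estimated the spread, for all genes as for the members. No called value of the genes given in full changed sign. With only the compared arrays in the fit, 25 genes were called in haplo 4th, 31 with 1 copy in the Df(2L)J-H/+ background, 12 in the difference of these, 0 with 3 copies against 2, 15 with 3 against 1, 0 and 0 in the comparisons of pof-mutant at 2 and 3 copies, and 23 in the deficiency groups, where 29.4%, 11.9%, 22.2%, 1.72%, 1.07%, 0.217%, 0.0271% and 64.2% of all genes were called. Genes short of dose were then 24 and 17 with 1 copy, 9 with 3, and 0 without Pof (92.5%, 90.9%, 64% and 13.4% of all genes). Without the 6 pof-mutant arrays (chosen after seeing the data) the calls in that order were 25, 34, 9, 20 and 37, with 25 in the deficiency groups (21.9%, 17.7%, 15.5%, 17.2%, 10.3% and 60% of all genes), and 24, 19, 11 and 31 genes fell short. Without pof-mutant array 3 and pof-mutant triplo 4th array 2 (likewise) the calls were 21, 29, 3, 9 and 35, with 35 for pof-mutant, 1 for its 3-copy comparison, 35 for the third copy without Pof, 16 for the difference of the third-copy effects and 18 in the deficiency groups (9.45%, 9.33%, 4.76%, 9.15%, 4.85%, 65.8%, 2.47%, 68.5%, 28.3% and 48.1% of all genes), and 21 (haplo 4th), 9 (triplo 4th) and 30 (3 copies against 1) genes fell short.

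With the germline covariate the calls were 28 and 29 with 1 copy, 1 for their difference, 10 with 3 copies, 7 for pof-mutant and 17 in the deficiency groups (7.58%, 11.1%, 2.66%, 7.44%, 10.1% and 23.2% of all genes). Short of dose were then 14 genes in Df(2L)J-H/+ haplo 4th, 14 in triplo 4th and 31 with 3 copies against 1 (91.5%, 70.1% and 98% of all genes). Median centring gave 5 calls with 3 copies and 2 for pof-mutant (4.28% and 4.85% of all genes). It left 8 genes short in triplo 4th (60.2% of all genes), and no centring left 9 short there (63.3%). No centring moved the median of all genes by −0.26 in the deficiency groups, where 10 members were then lower and 2 higher instead of 3 and 5 (41.8% of all genes were called), and by 0.14 and 0.12 in the difference of the 1-copy comparisons and in the 3-copy Pof comparison. The members' median in the former, −0.10, was 0.04 without centring and 0.03 with the covariate. A limit of 8 (33 genes) left 0 calls for pof-mutant and 1 at 3 copies (3.5% and 3.45% of all genes). No expression limit (57 genes) gave 16 calls in the deficiency groups, where 48.5% of all genes were called. Short were then 22 and 18 genes with 1 copy, 9 with 3 and 29 with 3 against 1 (87.3%, 87.4%, 66.8% and 96.5% of all genes). Without probe sets that can bind related transcripts (28 genes left) the calls were 8 and 7 with 1 copy, 1 with 3, 12 with 3 against 1, 0 and 1 for pof-mutant at 2 and 3 copies and 5 in the deficiency groups (3.67%, 4.21%, 3.2%, 1.76%, 4.06%, 3.17% and 31.5% of all genes). Short of dose were then 7, 5, 2, 9 and 4 genes (80.6%, 81.9%, 58.9%, 94.8% and 64.8% of all genes), the last without Pof.

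The replicate number as a block gave 0 calls for pof-mutant, where Pur-alpha reached an adjusted p of 0.0538, and 1 for its 3-copy comparison, and changed no other count (13, 15, 0, 2, 25, 0, 0 and 8). Same-numbered arrays deviated together in some pairs of groups and apart in others (r from −0.48 to 0.82), so the numbers only name arrays.

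Leaving out 1 array in turn gave 8 to 10 calls in haplo 4th (8 without wild type array 1 or haplo 4th array 2), 8 to 12 in the Df(2L)J-H/+ background (8 without array 2 of either group), 0 to 0 in their difference, 0 to 3 with 3 copies, 17 to 24 with 3 against 1, 0 to 30 for pof-mutant, 0 to 15 at 3 copies, 0 to 1 for the third copy without Pof, 0 to 0 for the difference of third-copy effects and 4 to 7 in the deficiency groups. Genes short of dose were 6 to 15 and 4 to 8 with 1 copy, 2 to 6 with 3, 12 to 24 with 3 against 1 and 1 to 14 without Pof. Where an array is left out, its group is represented by the other arrays and their spread is pooled. The 3-copy calls of ATPsynbeta and Gat and the Pur-alpha call in pof-mutant were the calls given in full that were lost, in 18 settings between them (adjusted p up to 0.106, 0.193 and 0.478). Mpv17 in haplo 4th was −0.28 without centring and −0.13 with the covariate, and CG11360 in Df(2L)J-H/+ haplo 4th, not called at 0.09, was −0.15 with the covariate.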
